A study of Mus musculus with 9 samples.

Results

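Described here are 10 genes that handle heme in mouse cells: the heme oxygenases Hmox1 and Hmox2, the biliverdin reductases Blvra and Blvrb, the synthesis enzymes Alas1 and Fech, the transporters Flvcr1, Slc48a1 and Abcg2, and the heme-binding protein gene Hebp1. They were picked by name for their roles, as 10 of the 29756 entries of a gene expression table, and each name occurred once. The choice was made with earlier results of these data known, so their calls and ranks are not those of an unselected set. The table covered 9 mRNA sequencing libraries of HT22, an immortalised line derived from mouse hippocampal neurons. The labels gave 3 libraries each to a control group, an experimental group and an intervention group. All 9 shared the same cell line and library kit, and no allele or transgene was named. The series concerns hemin, an oxidised form of heme, and PPP8, a bioactive micelle tested as a therapy, but the labels did not say which cultures received which agent, dose or time. The groups therefore keep their labelled names. Separate cultures were not stated for the replicates, so p-values measure the spread between these libraries, which may be technical.

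Heme is an iron-porphyrin that serves in respiration, oxygen binding and catalysis, and free heme damages membranes through its iron. Cells make it in a chain of enzymes that starts and ends in mitochondria, with ALAS1 at the rate-limiting entry and ferrochelatase, the product of Fech, inserting the iron. Heme oxygenases open the ring to biliverdin, iron and carbon monoxide, and biliverdin reductases turn biliverdin into the antioxidant bilirubin. The heme-binding repressor BACH1 and the activator NRF2 are textbook regulators of Hmox1, and heme is known to repress Alas1. Such heme handling matters in brain tissue after bleeding, when haemoglobin releases heme near neurons.

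Levels were deposited as FPKM, in which a gene's fragments are divided by its length and by the size of the library. That is meant to let levels of different genes be set side by side. How reads that match several genes were counted is not given in the sources used here, so comparisons between genes are approximate. Each is a share of a library's RNA, and in such bulk samples fewer cells that express a gene and less of its RNA per cell cannot be told apart. Summed FPKM was 316912 to 339943 per library, and 11154 to 11732 entries reached 1 FPKM. The number of reads behind the values is unknown. Of 10 genes listed for neurons and their precursors, 7 stayed under 1 FPKM in every library, among them the mature markers Rbfox3, Map2 and Syt1 and the immature markers Dcx and Nes. Tubb3, neuronal beta-tubulin, was present at 5.69 to 8.46 FPKM in all 9 libraries and made up most of the list's sum of 7.83 to 12.8 FPKM. Erythroid genes, which would mark red cell RNA, summed to at most 3.44 FPKM over 7 entries. Astrocyte markers, 6 in number, summed to 5.79 to 7.04 FPKM in control and 2.32 to 3.94 in the other groups, and 8 oligodendrocyte and endothelium markers to 29.0 to 36.4 and 16.3 to 17.0. Microglia and macrophage markers, 7 in number, summed to 11.0 to 12.4 FPKM in control and 2.65 to 4.40 elsewhere, but the 2 that were tested moved in opposite directions in experimental against control. Tmem119 went from 10.3 ± 0.805 to 0.930 ± 0.171 FPKM (adjusted p = 4.81e-08) and Cd68 from 1.23 ± 0.211 to 1.88 ± 0.299 (0.0071), while Aif1, Cx3cr1, P2ry12, Csf1r and Ptprc stayed at or under 0.170 FPKM. The part of these markers in the results was not tested. Of 6 transcripts listed for RNA quality, 4 were lower and 1 higher in experimental against control (2 and 2 after median-ratio scaling), and 4 were lower and 1 higher in intervention against control. Neat1, a nuclear RNA, went from 16.4 ± 3.21 to 5.74 ± 0.894 FPKM (SD, n = 3 each; adjusted p = 7.3e-06), Malat1 from 142.9 ± 40.6 to 91.8 ± 12.9 (0.0141), Actb from 634 ± 40.2 to 375 ± 7.90 (1.9e-06) and Gapdh from 14.3 ± 2.99 to 9.58 ± 0.4 (0.00349). The mitochondrial mt-Co1 was the higher one (0.0414) and mt-Nd1 was not called (0.479). Their part in the results was not tested either.

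Against control, the experimental group held far more Hmox1 mRNA and more Blvrb, Flvcr1 and Slc48a1 mRNA, and less Alas1, Abcg2, Hmox2, Blvra and Fech mRNA. An entry was tested when it reached 1 FPKM in at least 3 of the 9 libraries, which 9 of the 10 genes did, none of them through the libraries of 1 group alone. Differences were tested on the log2(FPKM + 1) scale with limma over 11974 entries and a difference counted as called when its p, adjusted by Benjamini-Hochberg, was under 0.05. All 9 tested genes were called, 4 higher and 5 lower, in a comparison in which 74.0% of all entries were called, 23.5% higher and 50.5% lower. Their 3 experimental values did not overlap their 3 control values in 9 of 9 cases, which held for 76.2% of all entries tested. A call was therefore common among all entries. The median difference was -0.53 log2 units over the 9 genes and -0.21 over all entries. After median-ratio scaling, which brings the median of all entries to 0.003, the genes were again 4 higher and 5 lower, while 36.6% of all entries were higher and 36.4% lower.

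**Figure D1:**
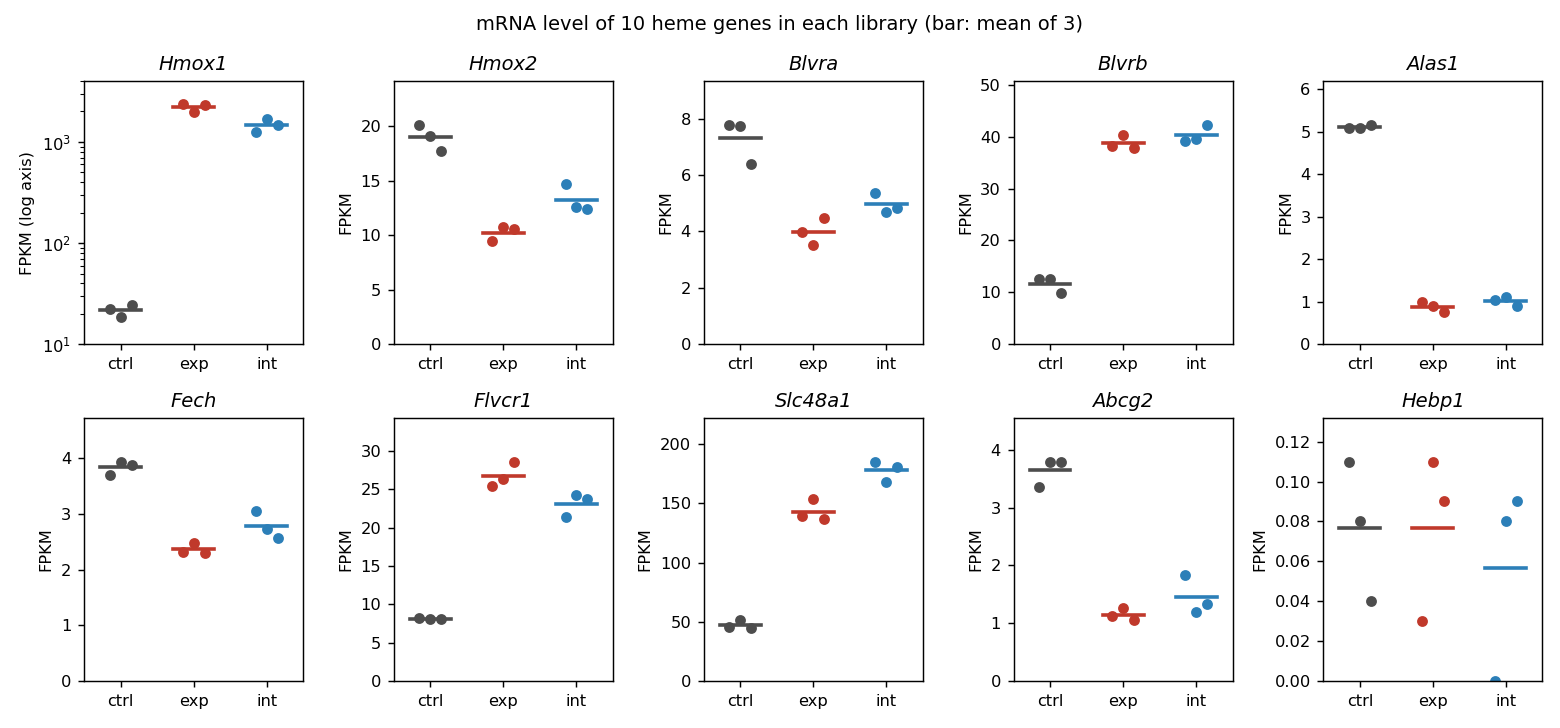
FPKM of the 10 heme genes in each of the 9 libraries, with control (ctrl), experimental (exp) and intervention (int) on the horizontal axis. Points are libraries and bars are means of 3; the Hmox1 axis is logarithmic and the others start at 0. Hmox1 sits near 20 FPKM in control and at 1266 or more in the other groups, whereas Hebp1 stays at or under 0.11 throughout.

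Of the breakdown enzymes, Hmox1, the inducible heme oxygenase, had control values of 22.2, 18.6 and 24.4 FPKM, experimental values of 2350, 1957 and 2326, and intervention values of 1266, 1674 and 1466. The groups were fully apart, with control lowest and experimental highest. Its experimental-minus-control difference of 6.61 log2 units (95% interval 6.34 to 6.88, adjusted p = 4.35e-10 by limma) ranked 1 of 11974 from the top, and so did its intervention-minus-control difference of 6.01 (5.74 to 6.28, adjusted p = 7.33e-10). Hmox1 was the 1973rd to 2737th most abundant entry in the control libraries, the 20th to 23rd in the experimental and the 24th to 31st in the intervention libraries. Its share of the summed FPKM was 0.00680% ± 0.00102 in control, 0.660% ± 0.0633 with the experimental label and 0.434% ± 0.0621 with the intervention label (SD, n = 3 each). The gene lies on chromosome 8 at 75093621 to 75100589, plus strand, on mm10, and no other annotated gene overlapped it.

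Hmox2 encodes the constitutive heme oxygenase, which neurons and testis are known to express strongly, and it moved the other way. Its control values were 20.1, 19.2 and 17.8 FPKM, its experimental values 9.44, 10.8 and 10.6, and its intervention values 14.7, 12.6 and 12.4. The groups did not overlap, with intervention between the other groups. The experimental level was 0.539 of control (log2 difference -0.83, 95% interval -1.0 to -0.66, adjusted p = 5.46e-06). In control cells the paralogs were thus close to equal, with 1.15 ± 0.207 Hmox1 per Hmox2 by FPKM. The ratio was 217 ± 33.6 in experimental and 112 ± 23.95 in intervention libraries (SD, n = 3 each). Hmox2 (chromosome 16, 4726361 to 4766742, plus strand) shares exon sequence with Cdip1 on the opposite strand, over up to 767 nt, and the use of strand in counting is not given in the sources used here. Cdip1 stood at 4.59 to 5.26 FPKM in all 9 libraries. A 257-nt stretch of a Hmox2 transcript also matches Ppp4r2 at 99.6% identity. Ppp4r2 stood at 17.3 to 24.5 FPKM and was also lower in experimental than in control libraries (log2 difference -0.35, limma adjusted p = 0.000295). The level of Hmox2 and the size of its difference are uncertain to that extent, and the part of shared reads was not tested.

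**Figure D2:**
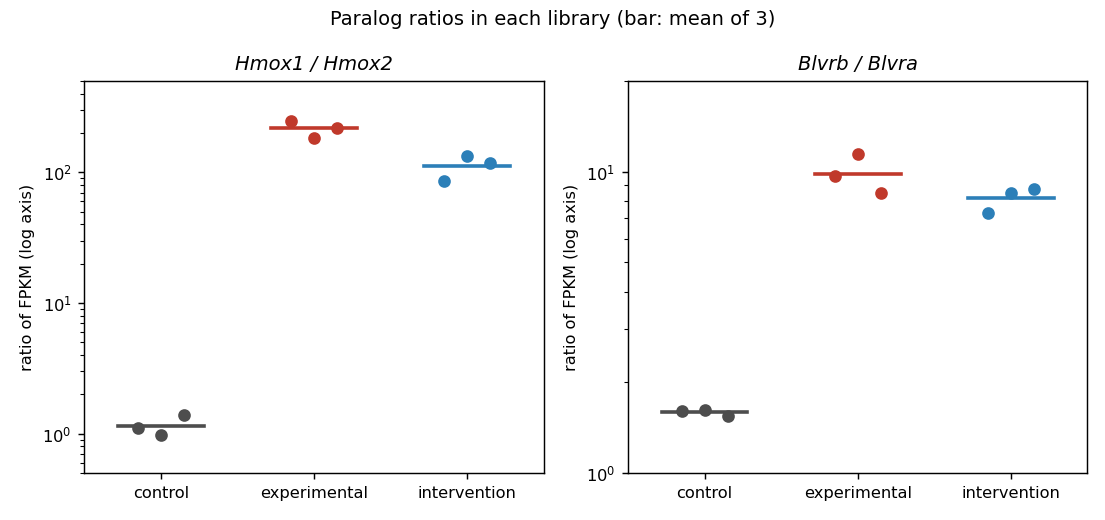
Ratio of FPKM of Hmox1 to Hmox2 and of Blvrb to Blvra in each library, on logarithmic axes; points are libraries and bars are means of 3. The Hmox1 to Hmox2 ratio is 0.970 to 1.38 in control and at least 85.9 elsewhere, and the Blvrb to Blvra ratio is 1.54 to 1.62 in control and at least 7.30 elsewhere.

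The biliverdin reductases split in the same way. Blvrb, which reduces biliverdin IX-beta and flavins, had control values of 12.5, 12.5 and 9.86 FPKM, experimental values of 38.3, 40.4 and 37.9, and intervention values of 39.3, 39.6 and 42.3. All 6 experimental and intervention values lay above every control value, and those 6 overlapped each other. Its mean was 3.34 times control in the experimental group (log2 difference 1.67, SE 0.08, adjusted p = 1.14e-07), 77th of 11974 from the top. Blvra, whose enzyme reduces the biliverdin IX-alpha that heme oxygenases release, had control values of 7.78, 7.73 and 6.39 FPKM, experimental values of 3.97, 3.53 and 4.48, and intervention values of 5.38, 4.68 and 4.82. Control was highest without overlap, and experimental lay just under intervention (log2 difference from control -0.73, SE 0.09, adjusted p = 4.33e-05). The Blvrb to Blvra ratio was 1.59 ± 0.0410 in control, 9.85 ± 1.5 in experimental and 8.18 ± 0.780 in intervention libraries. The FPKM of both reductases summed to 18.9 ± 2.32, 42.9 ± 0.912 and 45.4 ± 1.54 in that order. Blvrb lies on chromosome 7 at 27447978 to 27466144 and Blvra on chromosome 2 at 127070665 to 127097084, both on the plus strand.

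Alas1, the entry enzyme of synthesis, had the lowest relative level of the tested heme genes. Its control values were 5.09, 5.08 and 5.16 FPKM, against 1, 0.890 and 0.750 in experimental and 1.04, 1.11 and 0.910 in intervention libraries. All 6 values outside the control group lay far below it and overlapped each other. The experimental mean was 0.172 of control and the intervention mean 0.200 of control. On the log2(FPKM + 1) scale, which understates changes at such low levels, the experimental difference was -1.70 (95% interval -1.87 to -1.53, adjusted p = 7.22e-08), 91st of 11974 from the bottom. Alas1 (chromosome 9, 106233455 to 106248654, minus strand) shares 352 nt with the antisense gene 4930500F10Rik, which was at 0 to 0.140 FPKM.

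Fech, which makes the last step, also fell. Its values were 3.70, 3.94 and 3.88 FPKM in control, 2.31, 2.48 and 2.30 in experimental and 3.06, 2.73 and 2.57 in intervention libraries. The 3 groups did not overlap, and the experimental level was 0.615 of control (log2 difference -0.53, SE 0.07, adjusted p = 4.89e-05). The size of that difference depended on scaling: it was -0.21 after quantile normalization (adjusted p = 0.0106). Parts of Fech transcripts resemble those of other genes, with Eif3e, Hps3 and Zfp934 the ones above 1 FPKM, over 100 to 142 nt each. In experimental against control, Zfp934 and Hps3 were lower (log2 difference -0.61 and -0.28, limma adjusted p = 0.000162 and 0.00164). Eif3e was higher (0.28, limma adjusted p = 0.00294). The part of shared reads in the Fech difference was not tested.

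Of 8 synthesis enzymes listed, 7 were tested, and 6 fell and 1 rose in experimental against control, with a median difference of -0.50 log2 units. Over all entries 50.5% were lower and 23.5% higher, with a median of -0.21. After median-ratio scaling 5 fell, Uros no longer among them (adjusted p = 0.0778). Alas2, the erythroid form of the first enzyme, stayed at or under 0.140 FPKM and was not tested. Ppox, the oxidase before the last step, went from 8.72 ± 0.641 to 3.76 ± 0.248 FPKM (adjusted p = 7.27e-07). Alad, the second enzyme, stood at 0.705 of control, Urod, which trims uroporphyrinogen, at 0.696, and Uros, which closes the ring, at 0.673 (adjusted p = 0.000189, 0.00024 and 0.00561). Cpox, the coproporphyrinogen oxidase between Urod and Ppox, was the enzyme that rose, from 11.2 ± 0.400 to 17.1 ± 0.416 FPKM (adjusted p = 2.99e-06).

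**Figure D3:**
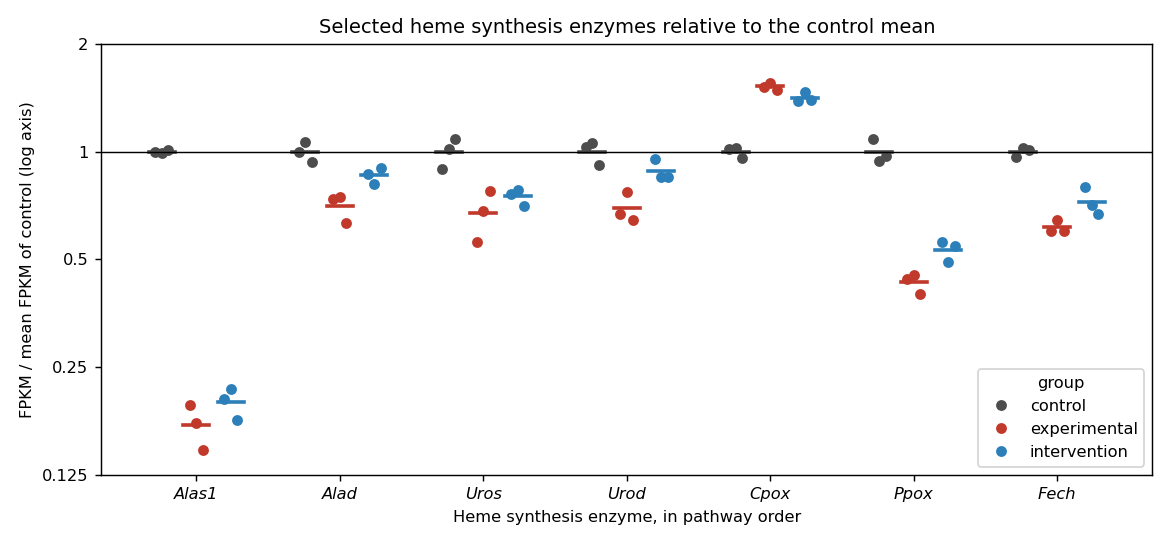
FPKM of 7 tested heme synthesis enzymes, in pathway order, relative to the mean of the control libraries, on a logarithmic axis; points are libraries, bars are means of 3, and colours are groups. Alas1 lies lowest, at 0.147 to 0.217 of control in the experimental and intervention libraries, and Cpox alone lies above 1 there, at 1.39 to 1.56.

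Genes that assist synthesis in mitochondria were called at shares near those of all entries. Of 11 tested, 3 rose and 5 fell in experimental against control, with a median of -0.0059 log2 units, against 23.5% higher and 50.5% lower over all entries, and 6 rose and 3 fell after median-ratio scaling. Fdx2, a ferredoxin, would not have passed the filter without the control libraries. Abcb6, a porphyrin transporter, rose from 2.23 ± 0.955 to 7.04 ± 1.18 FPKM (adjusted p = 5.81e-05), and Clpx, a mitochondrial unfoldase, from 10.9 ± 0.741 to 14.3 ± 0.414 (0.000203). The mitochondrial transporter Abcb10 fell from 12.5 ± 0.253 to 6.30 ± 0.556 (adjusted p = 1.55e-06) and Tmem14c, a porphyrinogen carrier, from 35.7 ± 0.570 to 22.4 ± 0.594 (8.31e-06).

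Among transporters, Flvcr1, a plasma membrane transporter first described as a heme exporter and later as a choline transporter, had control values of 8.15, 8.12 and 8.05 FPKM. Its experimental values were 25.4, 26.3 and 28.6 and its intervention values 21.3, 24.2 and 23.7. No group overlapped another. The experimental difference from control was 1.61 log2 units (95% interval 1.47 to 1.74, adjusted p = 3.68e-08), 86th of 11974 from the top. Flvcr1 lies on chromosome 1 at 191005847 to 191026158, minus strand, and its antisense partner A230020J21Rik stood at 0.0300 to 0.5 FPKM.

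Slc48a1 encodes HRG1, which moves heme out of lysosomes and endosomes into the cytosol. Its control values were 45.5, 51.2 and 44.95 FPKM, its experimental values 139, 154 and 136, and its intervention values 185, 168 and 181. Here the intervention group was the highest of 3 groups that did not overlap. The differences from control were 1.58 log2 units in experimental (SE 0.07, adjusted p = 5.82e-08) and 1.89 in intervention libraries (SE 0.07, adjusted p = 3.60e-08), 95th and 40th of 11974 from the top. Slc48a1 (chromosome 15, 97778520 to 97792692, plus strand) has exons that overlap Hdac7 on the opposite strand. Hdac7 went the other way, from 32.1 FPKM in control to 11.9 in experimental libraries (log2 difference -1.36, adjusted p = 1.76e-07).

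Abcg2, an efflux pump that exports porphyrins and many drugs, was low and fell. Its control values were 3.36, 3.80 and 3.79 FPKM, its experimental values 1.13, 1.27 and 1.05, and its intervention values 1.83, 1.19 and 1.34. The control group lay above all 6 other values, which overlapped each other. The experimental level was 0.315 of control (log2 difference -1.11, SE 0.10, adjusted p = 4.45e-06). Hebp1, a heme-binding protein, was listed at 0.110, 0.0800 and 0.0400 FPKM in control, 0.0300, 0.110 and 0.0900 in experimental and 0, 0.0800 and 0.0900 in intervention libraries. It was too low to test, and its groups overlapped.

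**Figure D4:**
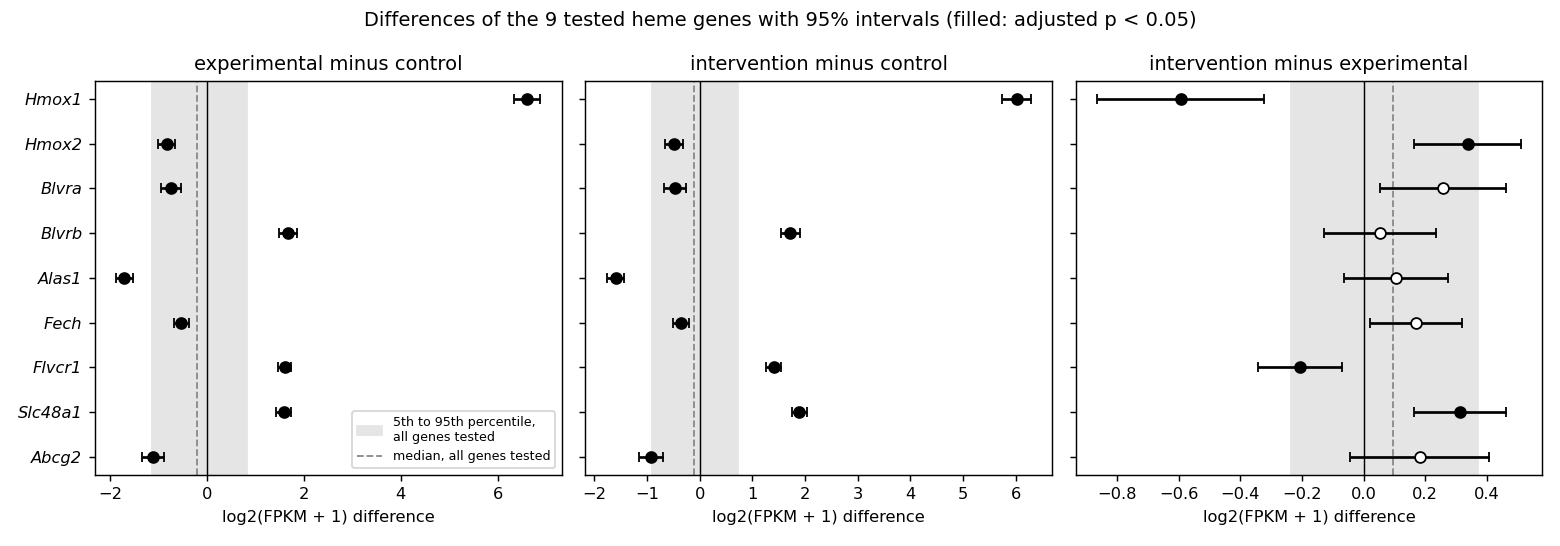
Difference in log2(FPKM + 1) of the 9 tested heme genes in the 3 comparisons, with 95% intervals from limma; filled points have an adjusted p under 0.05. The grey band spans the 5th to 95th percentile of all 11974 entries tested and the dashed line is their median. Hmox1, Blvrb, Flvcr1 and Slc48a1 lie above the band in the panels against control, at 1.40 or more. Alas1 lies below the band in those panels, at -1.70 (experimental) and -1.60 (intervention). Abcg2 lies just below it in intervention minus control only, at -0.93.

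The lists that follow can be read against the same shares of all entries, 23.5% higher and 50.5% lower. Of 16 genes of heme transport and binding listed, 11 were tested, of which 3 rose and 5 fell in experimental against control. Hebp2, Hpx and Hp would not have passed the filter without the control libraries, and 3 fell when control replicate 1 was left out. Apart from Flvcr1 and Slc48a1 the riser was Pgrmc1, a membrane protein that binds heme, from 42.7 ± 2.35 to 67.7 ± 1.21 FPKM (adjusted p = 2.75e-06), while its relative Pgrmc2, a heme chaperone, fell from 37.0 ± 1.51 to 26.2 ± 2.35 (0.000151). Lrp1, which takes up heme bound to hemopexin, fell from 74.4 ± 19.4 to 51.7 ± 1.38 (0.0168), with overlapping libraries and a call lost after median-ratio scaling (0.212). Cd163, the receptor for haemoglobin bound to haptoglobin, was at or near 0. Of the organic anion pumps, which export glutathione conjugates, with bilirubin among the reported substrates, Abcc1 rose from 5.91 ± 0.462 to 28.7 ± 0.830 FPKM (adjusted p = 1.44e-08) and Abcc4 from 3.49 ± 0.431 to 13.3 ± 0.428 (1.38e-07). The other 2 of these 4, Abcc2 and Abcc3, were too low to test. Por, the reductase that feeds electrons to heme oxygenases, was at 33.0 ± 1.01 FPKM in control and 33.9 ± 0.962 in experimental libraries (adjusted p = 0.495), and it was called higher after median-ratio scaling (0.000687).

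Regulators that sense or answer to heme included small MAF genes, whose proteins pair with BACH1 or NRF2 on DNA. Of 15 tested in a list of 16, 7 rose and 4 fell (9 and 2 after median-ratio scaling). Foxo1 and Tfeb, both among the fallers, would not have passed the filter without the control libraries. Mafg rose from 25.5 ± 1.79 to 50.2 ± 2.85 FPKM (adjusted p = 5.5e-07) and Mafk from 7.97 ± 0.405 to 24.1 ± 2.53 (6.49e-07). Tfe3, a lysosomal gene regulator, rose from 7.44 ± 0.252 to 12.8 ± 0.228 (8.81e-07). Ppargc1a, a coactivator known to induce Alas1, fell from 10.8 ± 0.391 to 5.66 ± 0.205 (7.19e-07). Bach1 and Nfe2l2, which encode the BACH1 and NRF2 described above and are named after their values were seen, went from 8.10 ± 0.515 to 16.4 ± 1.21 (3.11e-06) and from 25.6 ± 0.705 to 41.8 ± 1.02 (1.02e-06). A list of 21 genes meant as hemoproteins, 15 of them tested, gave 5 higher and 8 lower, or 8 and 7 after median-ratio scaling. Without experimental replicate 1 or 3 the higher count was 3. It also held Cyb5r3, Sqle and Uqcrfs1, which carry flavin or iron-sulfur groups in place of heme. By the size of its adjusted p it was led by Ptgs2, the inducible cyclooxygenase, from 5.71 ± 0.437 to 249 ± 47.6 FPKM (adjusted p = 3.68e-08). Of the fallers, Cyb5r3 went from 109.8 ± 4.90 to 55.5 ± 2.95 (2.2e-07), the sterol enzyme Sqle from 109.4 ± 5.66 to 47.5 ± 1.98 (2.87e-07), and Sdhc, a subunit that binds the heme of succinate dehydrogenase, from 27.0 ± 2.04 to 13.6 ± 0.521 (5.34e-07).

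Set against control, the intervention group kept the same directions. All 9 tested heme genes were called, 4 higher and 5 lower, and none overlapped control, where 65.3% of all entries were called (24.1% higher, 41.1% lower) and 68.7% did not overlap. This comparison shares the control libraries with the one above, so the directions are not independent. Blvrb stood at 3.48 times control (log2 difference 1.72, adjusted p = 1.69e-07), Flvcr1 at 2.85 times (1.40, adjusted p = 1e-07) and Abcg2 at 0.398 of control (-0.93, adjusted p = 2.51e-05). The log2 differences of Alas1, Hmox2, Blvra and Fech were -1.60, -0.49, -0.48 and -0.36, with adjusted p-values of 1.66e-07, 0.00031, 0.00114 and 0.000964. Of the 7 synthesis enzymes tested, 1 was higher and 5 lower (3 lower after median-ratio scaling, without intervention replicate 2 or without control replicate 2), and Urod was not called (adjusted p = 0.0861).

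Between intervention and experimental groups Hmox1 and Flvcr1 were lower and Slc48a1 and Hmox2 higher in the intervention group. These were 2 lower and 2 higher of 9 tested, where 19.5% of all entries were called, 3.60% lower and 15.9% higher, and the median difference of all entries was 0.10 log2 units. The groups did not overlap for 6 of the 9 genes and for 42.5% of all entries. Hmox1 was at 1469 ± 204 against 2211 ± 220 FPKM (SD, n = 3 each), a ratio of 0.664 (log2 difference -0.59, 95% interval -0.87 to -0.32, adjusted p = 0.017). It was 74th of 11974 from the bottom. Flvcr1 was at 23.1 ± 1.56 against 26.8 ± 1.64 (-0.21, -0.34 to -0.07, adjusted p = 0.043). Slc48a1 was at 178 ± 9.07 against 143 ± 9.11 (0.31, 0.16 to 0.46, adjusted p = 0.0188), and Hmox2 at 13.3 ± 1.29 against 10.3 ± 0.714 (0.34, 0.17 to 0.51, adjusted p = 0.0219).

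Those 4 calls were not stable when single libraries were left out. None of them held without experimental replicate 1, experimental replicate 3 or intervention replicate 1, when Hmox1 had an adjusted p of 0.0663, 0.0696 and 0.0656, Hmox2 of 0.0817, 0.0697 and 0.0776, Slc48a1 of 0.0724, 0.0763 and 0.0751, and Flvcr1 of 0.0786, 0.152 and 0.151. In these limma fits 3, 3 and 2 of the heme genes were higher and 2, 2 and 2 lower at an unadjusted p under 0.05, and all 4 genes kept their sign. Of all entries tested, 1, 4 and 6 were called in these fits, and the list counts and single genes of this comparison given next rest on the same libraries. Without intervention replicate 3, Slc48a1 (0.052) and Flvcr1 (0.0739) lost the call, and Flvcr1 also lost it without experimental replicate 2 (0.0589), control replicate 1 (0.062) or control replicate 3 (0.0535) and with the replicate number as a block (0.0609). After median-ratio scaling 567 of all entries were higher and 946 lower (4.74% and 7.90%). Slc48a1 and Hmox2 were then no longer called higher (adjusted p = 0.0552 and 0.0522), while Hmox1 and Flvcr1 stayed lower (0.0192 and 0.0225). After quantile normalization Hmox1 (log2 difference -0.38, limma adjusted p = 0.0715) and Hmox2 (0.0568) lost the call, while Slc48a1 (0.0252) and Flvcr1 (0.0438) kept it. With no filter on low values none of the 4 was called (Hmox1 0.0641).

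The other 5 tested genes were not called between these groups, which does not show that they were equal. The interval was -0.13 to 0.24 log2 units for Blvrb (adjusted p = 0.661), -0.06 to 0.27 for Alas1 (0.335), -0.04 to 0.41 for Abcg2 (0.212), 0.02 to 0.32 for Fech (0.096) and 0.05 to 0.46 for Blvra (0.0723). Synthesis enzymes were higher in 3 of 7 cases and lower in 0, against 15.9% and 3.60% of all entries (0 and 1 after median-ratio scaling), and higher in 0 without experimental replicate 1, experimental replicate 3, intervention replicate 1 or intervention replicate 3. Urod was at 19.8 ± 1.36 against 15.6 ± 1.49 FPKM (adjusted p = 0.0245), with Alad (0.0334) and Ppox (0.0397) the others. Among regulators, Mafk was at 15.5 ± 2.13 against 24.1 ± 2.53 FPKM (0.0151). In the breakdown list Ugt1a6a, a glucuronosyltransferase, was at 5.61 ± 1.78 against 2.84 ± 0.324 (0.0295). Ugt1a genes share exons, so its level as a separate gene is uncertain.

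By mean level the order was control, intervention, experimental for Hmox1 and Flvcr1, rising, and for Hmox2, Blvra, Alas1, Fech and Abcg2, falling. Slc48a1 and Blvrb alone had intervention beyond experimental. Neighbouring intervention and experimental levels overlapped for Blvrb, Alas1 and Abcg2, and for Blvra and Fech they were apart but not called.

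Likeness of pattern was measured as the root mean square distance between profiles over the 9 libraries, in log2(FPKM + 1) relative to the gene's own control mean, among 6848 named genes with a mean of at least 5 FPKM. Hmox1 had no close neighbour by this measure: the nearest was Ptgs2, at 1.44 log2 units, followed by Hspa1b at 1.78 and Hspa1a at 1.85, inducible Hsp70 genes. The distance was not scaled for the size of a change. Hmox1 had the largest difference of all 11974 entries tested (6.61 log2 units, experimental minus control), so a large distance was fixed by its size. Blvrb and Slc48a1 shared their nearest genes, the protease inhibitor Slpi (0.09 from each) and the carbonyl reductase Cbr3 (0.10 and 0.12), which went from 57.5 and 18.1 FPKM in control to 187 and 55.1 in experimental and 204 and 61.3 in intervention libraries. Nearest to Flvcr1 was Bcat1, a branched-chain aminotransferase (0.06), nearest to Alas1 was Cdc42ep3 (0.09), and nearest to Abcg2 was Vegfb, a growth factor (0.04). Hmox2 lay nearest to Rnf34 (0.04), Blvra to Cuedc2 (0.08) and Fech to Klhl7 (0.03).

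Promoters of Flvcr1 and Blvrb, which rose, and of Alas1, which fell, are shown as examples of windows searched for binding motifs. The Flvcr1 and Alas1 windows held matches and the Blvrb window held none. RefSeq on GRCm38.p6 gave windows from 250 bases before to 50 after a transcript start for 7 of the 10 genes, and Hmox1, Slc48a1 and Fech did not match. Both strands were searched for TGACNNNGC (the antioxidant response element core, bound by NRF2 or BACH1 with a small MAF protein), TGCTGAC (a MAF half-site), TGANTCA (AP-1), CACGTG (E-box), TTCNNGAA (heat shock element core) and GCATGC (NRF1 core). Capitals mark matches. The Flvcr1 window is chr1:191026141-191026440, minus strand, the first listed Alas1 window chr9:106247905-106248204, minus strand, and the first listed Blvrb window chr7:27447728-27448027, plus strand. Each is written 5′ to 3′ on the gene's strand.
Flvcr1: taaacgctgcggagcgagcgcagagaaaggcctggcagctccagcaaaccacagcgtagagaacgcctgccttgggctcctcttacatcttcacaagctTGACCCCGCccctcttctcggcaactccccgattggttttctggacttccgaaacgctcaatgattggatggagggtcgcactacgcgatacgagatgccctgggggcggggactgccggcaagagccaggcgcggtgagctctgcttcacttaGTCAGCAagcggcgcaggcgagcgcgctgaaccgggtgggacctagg
Alas1: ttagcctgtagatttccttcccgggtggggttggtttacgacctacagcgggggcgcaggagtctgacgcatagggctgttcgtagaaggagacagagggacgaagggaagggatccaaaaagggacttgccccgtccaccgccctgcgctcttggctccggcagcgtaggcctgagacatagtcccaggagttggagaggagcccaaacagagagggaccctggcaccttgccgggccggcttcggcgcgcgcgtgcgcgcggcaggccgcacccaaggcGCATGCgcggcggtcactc
Blvrb: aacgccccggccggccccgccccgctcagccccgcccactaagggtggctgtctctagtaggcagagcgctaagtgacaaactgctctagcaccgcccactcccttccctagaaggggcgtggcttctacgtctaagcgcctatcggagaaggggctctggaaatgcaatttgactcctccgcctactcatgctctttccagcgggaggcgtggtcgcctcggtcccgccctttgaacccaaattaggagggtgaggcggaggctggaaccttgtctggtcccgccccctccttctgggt

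Flvcr1 held an antioxidant response element core, found in 12.4% of the 32851 promoter windows listed, from -151 to -143 relative to the start. It also held a MAF half-site, found in 4.67% of windows, from 3 to 9 relative to the start. These matches did not overlap each other, although both motifs contain TGAC. Alas1 held an NRF1 core, found in 7.93% of windows, at a single site that both of its listed windows cover. Blvrb, with 2 windows, and Hmox2 and Abcg2, with 3 each, held none of the 6. Blvra held an antioxidant response element core and Hebp1 an E-box, the latter found in 7.15% of windows. AP-1 sites occur in 7.81% of windows and heat shock cores in 8.52%, and neither was found in the heme genes' windows. These matches describe letters in short windows only, and binding was not measured.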

How the data were processed

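RNA was isolated and libraries made with a SMARTer mRNA-Seq kit, per the labels' protocols, from 9 HT22 samples in 3 groups of 3. The authors deposited 1 table of FPKM with 2 decimals, and the genome build is mm10, per the submitters' processing notes. For the aligner, counter, annotation and strand setting, no name was given in the sources used here. Depth is unknown: among genes shorter than 200 nt, 1359 of 8277 nonzero values (16.4%) were smaller than a single read would give even in a very deep library, so whole reads were not recovered and the planned count test was not run.

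Groups were taken from the sample titles and columns from matching names. FPKM were transformed to log2(FPKM + 1), and 11974 of 29756 entries with at least 1 FPKM in at least 3 of 9 libraries were fitted with limma 3.58.1 in R 4.3.3 (group means over all 9 libraries, eBayes with a mean-variance trend, no covariate), 2-sided, with Benjamini-Hochberg adjustment over all entries of a comparison. For the 61 repeated entries the highest mean kept the name. Positions, overlaps and transcript matches (at least 100 nt at 95% identity or more) came from GENCODE M21. The fit was tested on simulated data in which few genes changed, in balanced directions. That test does not cover comparisons in which most entries are called, as in those with control here. Some genes of the lists are not reported here, and list counts leave them out. The genes, the lists and their members were chosen with earlier results of these data known. Outside the 10 genes and the synthesis enzymes, up to 4 tested genes per list with the smallest adjusted p in experimental against control were eligible to be named, and further names are said to be or follow from a count. Alternatives were pseudocount, filter, scaling, block, groups in the fit, trend and each library left out.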

Additional observations from a re-analysis of the deposited data

How the results depend on the processing

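The 9 tested genes kept sign and call against control in all 159 alternative fits of each comparison (18 settings, fewer where a gene failed a filter). Between intervention and experimental, 28 of 159 changed a call, and no sign of a called difference turned. Leaving out 1 library gave 0 to 2 genes higher and 0 to 2 lower there, with 1 to 2571 entries called in all, and 4 higher and 5 lower in the comparisons with control, with 8314 to 8841 (experimental) and 7169 to 7785 (intervention) entries called. With a mean FPKM of at least 5, Alas1, Fech and Abcg2 left the test, so 2 genes were lower against control in each comparison, with 5702 (experimental) and 5129 (intervention) entries called. For intervention against experimental, no filter on low values gave 0 higher and 0 lower (limma, 4 and 2 at an unadjusted p under 0.05) and 358 entries called, median-ratio scaling 0 higher (2 unadjusted) and 1513 entries, and quantile normalization 1 higher, 1 lower and 1038 entries. Fitting the compared groups only, or no trend, gave 1 lower. The cause was not tested. The replicate block gave 1 lower and 1268 entries. Same-numbered libraries' deviations correlated at -0.18 to 0.11. The same number was the best match in some cases, such as experimental replicate 2 with control (0.11 against 0.026 for the best other number). It was not in others, such as intervention replicate 2 with experimental (-0.18 against 0.146). Correlations this weak cannot tell whether the numbers pair samples, and the labels do not say. Of the 252 recomputed list counts per comparison, 14, 77 and 12 moved by over 1.5 times, for experimental against control, intervention against experimental and intervention against control. Precision is limited by 3 libraries a group, and for Alas1, Fech, Abcg2 and Hebp1 by low FPKM.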
